A study of Mus musculus with 8 samples.

Results

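Skeletal stem cells (SSC) were compared with bone cartilage stromal progenitors (BCSP) in 8 bulk RNA sequencing libraries, 4 of each population, with genotype and round held as covariates, so that the difference described is the one shared by both genotypes. The 8 libraries are all those of the series, 2 for each of 4 groups, namely SSC and BCSP from wild-type mice and SSC and BCSP from mice labelled Tet1 KO. Both populations were sorted from the femur of neonates aged 3 to 5 days, and every library, wild type included, carries the strain name B6;129S4-Tet1tm1.1Jae/J. The 2 libraries of a group are numbered round 1 and round 2, and are called library 1 and library 2 here. The labels do not say how many animals gave a library, whether the SSC and BCSP of a round came from the same animals, or what else a round shared, so p-values measure only the spread between these libraries, which may be technical.

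As background, SSC are the self-renewing cells at the top of a lineage in the growing mouse skeleton that gives rise to bone, cartilage and stroma, and BCSP are multipotent progenitors downstream of them. The 2 are usually sorted apart by endoglin (CD105, the product of Eng), a co-receptor for TGF-beta and BMP ligands, which BCSP display and SSC lack. SSC are further defined by CD200 and integrin alpha V and by the absence of Thy1, of 6C3 (the product of Enpep) and of blood and endothelial markers. The labels do not give the gates used here.

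Library totals ranged from 104782544 to 168004119 counts, and 22153 of 55471 listed genes had enough counts to be tested. In every library the cartilage collagen gene Col2a1 alone held between 24.7% and 30.6% of the counts. Tet1 stood between 7.26 and 12 CPM (counts scaled to library size) in the 4 KO libraries and between 11 and 21.6 in the 4 wild-type libraries, ranges that overlapped. Its difference between SSC and BCSP was -0.08 ± 0.23 on the log2 scale (SE; edgeR adjusted p = 1). Counts per gene do not show which part of Tet1 was read, so these values do not check the KO labels. One library stood apart from the rest. In library 2 of wild-type BCSP, long genes read low and short genes high relative to the mean of the libraries (Spearman correlation of the deviation with exon length across genes -0.498), and it lay alone at one end of the second principal component. Library 2 of KO BCSP lay at the end of the first component, with a correlation of 0.357. Results are therefore given over all 8 libraries and, where the call differs, without library 2 of wild-type BCSP.

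Eng was the gene that separated the populations most clearly, and it is the gene of the surface protein by which such cells are usually sorted, so it is given as a check of the labels and not as a finding. Eng (ENSMUSG00000026814, mm10 chr2:32646595-32682669, plus strand) stood at 2.70 and 3.89 CPM in SSC of wild type and at 2.55 and 2.53 in SSC of KO. It stood at 48.0 and 50.5 CPM in wild-type BCSP and at 43.9 and 25.7 in KO BCSP. All 4 SSC libraries lay below all 4 BCSP libraries, with means of 2.92 ± 0.653 and 42.0 ± 11.2 CPM (SD, n = 4 libraries each), a 14.3-fold difference. Eng fell by 3.83 ± 0.20 on the log2 scale in SSC relative to BCSP (SE; edgeR quasi-likelihood test, Benjamini-Hochberg adjusted p = 2.27e-06), by 3.90 in wild type and by 3.77 in KO.

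Over all 8 libraries, 2 of the 22153 tested genes (0.00903%) passed an adjusted p of 0.05, and both were lower in SSC. None passed in the other direction (0%), although 546 genes (2.46%) had an unadjusted p under 0.05 with SSC higher and 570 (2.57%) with SSC lower. The 1116 genes together were 5.04% of those tested, where 5% are expected with no difference at all. The second gene that passed was Ighg2c, an immunoglobulin heavy chain gene of B-lineage cells (adjusted p = 0.0111), and it rested on 1 library. It stood at 39.1 CPM in library 1 of wild-type BCSP and at no more than 0.153 CPM in each of the other 7. Population accounted for a median of 5.55% of the variation in log2 CPM across 12639 genes of at least 1 CPM on average, against 15.9% for genotype and 13.2% for round. A factor with no effect would take 14.3% as a mean over genes, a figure not directly comparable with these medians. In the same fit, 28 genes (0.126%) passed between the genotypes and 476 (2.15%) between the rounds.

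The number of genes called depended on the libraries, the filter on low counts and the tool. Without library 2 of wild-type BCSP, edgeR called 528 genes (2.38%), 245 higher (1.11%) and 283 lower (1.28%) in SSC, and 527 of the 528 had the same direction over all 8 libraries. DESeq2 on all 8 libraries called 140 genes (0.632%), 49 higher (0.221%) and 91 lower (0.411%), of which 125 were among the 528. These fits share libraries, so neither the 527 nor the 125 is independent support for the calls. Eng was the call of edgeR that DESeq2 shared. With all 8 libraries and no filter on low counts, edgeR called 135 of 33146 genes (0.407%), 53 higher (0.16%) and 82 lower (0.247%), and with an exon length trend removed it called 12 of 22120 (0.0542%), 2 higher (0.00904%) and 10 lower (0.0452%). Without both round 2 BCSP libraries it called 443 genes (2%), 200 higher (0.903%) and 243 lower (1.1%). With round as a covariate and no round 2 BCSP library left, that difference came from round 1 and is not one shared by the rounds. The contrast within round 1 in the fit of all 8 libraries called 4 genes. Leaving out other single libraries gave 10 calls in edgeR without library 2 of KO BCSP, 1 without library 1 of wild-type SSC or of wild-type BCSP, and 2 or 3 without each of the rest. The 7-library counts rest on 3 residual degrees of freedom, and the count of 443 on fewer. Below, a pass over all 8 libraries in edgeR means with the filter and no trend removed, is stated where it holds, and the other genes are given by their values.

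**Figure D1:**
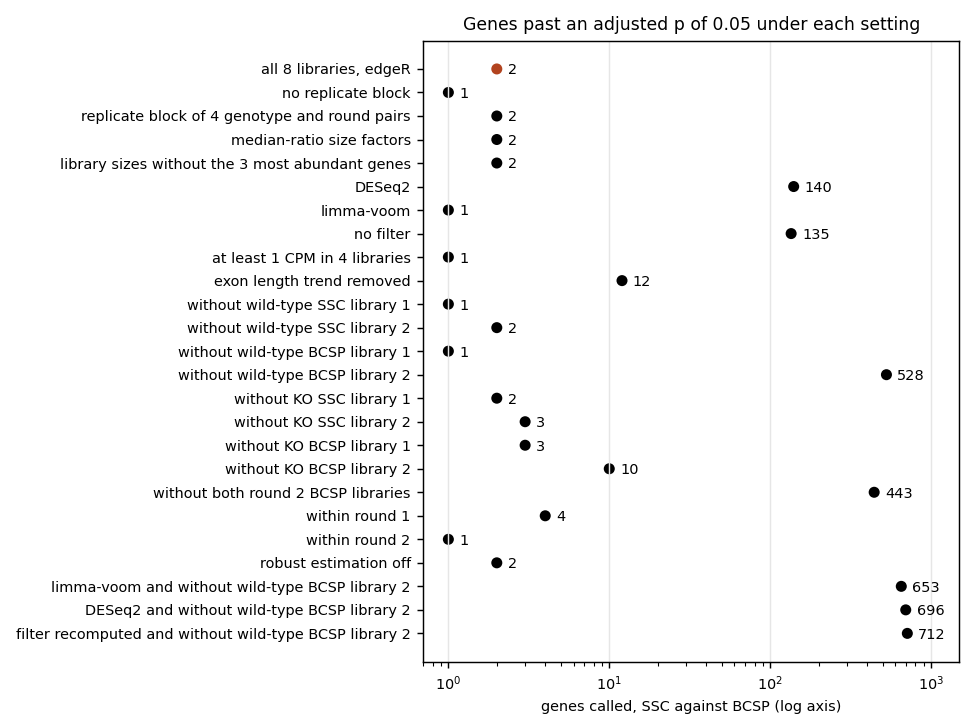
Number of genes past an adjusted p of 0.05 between SSC and BCSP (log axis) under each setting, one point per setting, with the count beside it. The fit of all 8 libraries called 2 genes, DESeq2 140 and the fit without library 2 of wild-type BCSP 528.

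Of the genes marking the comparison, the promoters of Runx3, Eng, Wif1 and Cytl1 are shown for their RUNX motif, and that of Arsi is not shown. The motif was chosen because Runx3 and Runx2, transcription factors of skeletal cells, were among the genes with higher levels in SSC. The letters TGTGGT and their reverse complement ACCACA were searched on both strands in the bases upstream of each start in RefSeq (GRCm38.p6), and capitals mark a match. Of 32851 windows of 250 upstream bases, 4614 (14%) held the motif. The windows lie at chr4:135120395-135120644 for Runx3, chr2:32646345-32646594 for Eng, chr10:121033754-121034003 for Wif1 and chr5:37735269-37735518 for Cytl1, all on the plus strand. Of the Wif1 window the first 206 bases are printed, to 121033959, where an annotated exon begins.
Runx3: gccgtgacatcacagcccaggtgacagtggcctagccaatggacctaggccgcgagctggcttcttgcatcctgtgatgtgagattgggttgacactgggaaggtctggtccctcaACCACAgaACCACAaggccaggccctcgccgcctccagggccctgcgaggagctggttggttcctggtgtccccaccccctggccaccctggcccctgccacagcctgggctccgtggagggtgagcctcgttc
Eng: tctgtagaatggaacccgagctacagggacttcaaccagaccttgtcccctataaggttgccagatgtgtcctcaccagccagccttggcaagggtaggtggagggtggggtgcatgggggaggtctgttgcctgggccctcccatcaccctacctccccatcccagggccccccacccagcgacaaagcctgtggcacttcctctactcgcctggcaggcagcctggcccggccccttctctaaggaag
Wif1: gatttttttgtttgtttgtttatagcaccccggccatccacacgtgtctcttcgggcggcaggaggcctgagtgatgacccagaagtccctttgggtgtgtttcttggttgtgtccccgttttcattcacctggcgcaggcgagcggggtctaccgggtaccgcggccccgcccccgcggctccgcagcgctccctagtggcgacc
Cytl1: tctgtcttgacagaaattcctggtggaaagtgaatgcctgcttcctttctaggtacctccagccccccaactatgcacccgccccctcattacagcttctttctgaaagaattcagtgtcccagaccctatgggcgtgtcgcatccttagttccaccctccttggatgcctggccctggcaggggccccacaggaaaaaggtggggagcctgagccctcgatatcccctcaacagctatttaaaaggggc
Of these, the Runx3 window held the motif, in 2 copies starting 134 and 126 bases before its own start, and these letters were not in the windows of Eng, Wif1 and Cytl1. Among the 15 leading genes in each direction that had a window, 3 of 11 with SSC higher and 3 of 13 with SSC lower held it. A match is a run of letters and was not tested as a binding site.

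The 15 leading genes in each direction were those with the smallest p among genes of at least 1 CPM that pointed the same way in all 4 pairs of libraries of 1 genotype and 1 round. Eng alone of the 30 passed in edgeR over all 8 libraries. All 30 passed in edgeR on the 8 libraries with no filter (0.407% of all genes tested there). With the exon length trend removed 9 passed (0.0542%), Arsi, Runx3, Cxcl12 and Serpinf1 among them. All 30 passed in DESeq2 (0.632% of all tested genes). In edgeR without library 2 of wild-type BCSP 29 of the 30 passed (2.38%), the exception being Wif1 (adjusted p = 0.0761). Since they were ranked on this contrast in these same libraries, their passes under the other settings follow in large part from the ranking and are not support. Their shared direction across pairs is part of how they were chosen and supports nothing. Such a shared direction held for 1707 of all tested genes with SSC higher (7.71%) and for 1467 with SSC lower (6.62%).

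Among the leading genes with lower levels in SSC were the secreted proteins Cxcl12, Wif1 and Cytl1. Cxcl12, the chemokine that retains blood progenitors in bone marrow, stood at 3.43 and 3.87 CPM in SSC of wild type and 5.54 and 7.55 in SSC of KO, against 7.06 and 6.89 in wild-type BCSP and 13.7 and 15.7 in KO BCSP. Each BCSP library was above the SSC library of its genotype and round, while the populations overlapped because KO libraries were higher in both. The difference was -1.06 ± 0.16 on the log2 scale (edgeR adjusted p = 0.0878 over all 8 libraries and 3.95e-06 without library 2 of wild-type BCSP). Wif1, a secreted inhibitor that binds Wnt ligands, stood at 139 and 137 CPM in SSC of wild type and 188 and 250 in SSC of KO, against 344 and 293 in wild-type BCSP and 452 and 294 in KO BCSP. The populations did not overlap, as held for 232 of all tested genes with SSC lower (1.05%), and the difference was -0.98 ± 0.18 (edgeR adjusted p = 0.168). Cytl1, a secreted cytokine-like protein of cartilage, stood at 40.2 and 47.8 CPM in SSC of wild type, 72.5 and 71.8 in SSC of KO, 79.4 and 186 in wild-type BCSP and 123 and 124 in KO BCSP. Its populations did not overlap either, and its difference was -1.15 ± 0.22 (edgeR adjusted p = 0.168 over all 8 libraries and 4.16e-07 without library 2 of wild-type BCSP, where the difference was -0.83).

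Serpinf1, which encodes the antiangiogenic protein PEDF, stood between 50.9 and 62.6 CPM in SSC and between 88.0 and 129 in BCSP, with no overlap and a log2 difference of -0.92 ± 0.15. Itgbl1, a secreted integrin-like protein, stood between 17.4 and 31.8 CPM in SSC and between 42.0 and 49.2 in BCSP (-1.01 ± 0.16). The olfactomedin-like matrix genes Olfml2a and Olfml2b were both among the leading genes, at -1.71 ± 0.26 and -0.93 ± 0.15, and neither overlapped between the populations. These 4 genes had an edgeR adjusted p of 0.0878 over all 8 libraries. Of the other leading genes with SSC lower, Ltbp1 (-0.75), a latent TGF-beta binding protein, Col14a1 (-0.67), a fibril-associated collagen, Itih2 (-0.81), which links hyaluronan-bound proteins, and Igfbp3 (-0.84), which binds insulin-like growth factors, are extracellular. Meox2 (-0.86) is a mesodermal homeobox factor, Jam2 (-0.73) a junctional adhesion molecule and Tcea3 (-0.84) a transcription elongation factor.

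**Figure D2:**
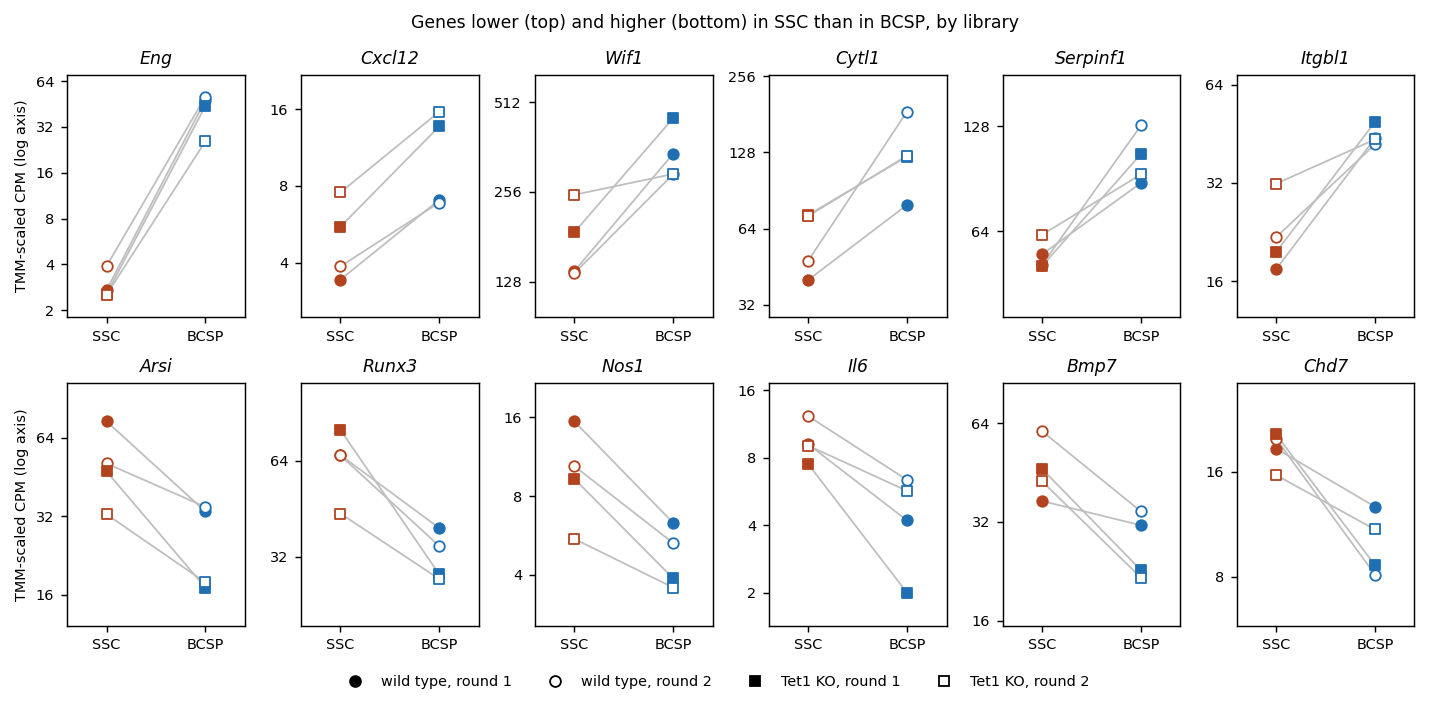
TMM-scaled CPM (log axis, scale differing by gene) of 12 leading genes in each library, SSC at left and BCSP at right of each panel, with grey lines joining the libraries of 1 genotype and round. Eng lies between 2.53 and 3.89 CPM in SSC and between 25.7 and 50.5 in BCSP, while for Cxcl12, Arsi and Nos1 the populations overlap although every line has the same slope.

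The genes with higher levels in SSC included a sulfatase, a RUNX factor and signalling genes. Arsi, a member of the arylsulfatase family, stood at 74.0 and 51.0 CPM in SSC of wild type and 47.6 and 32.6 in SSC of KO, against 33.4 and 34.8 in wild-type BCSP and 17.0 and 17.9 in KO BCSP. Every SSC library was above its BCSP partner, and the lowest SSC library, from KO, lay below both wild-type BCSP libraries. The log2 difference was 1.01 ± 0.16 (edgeR adjusted p = 0.0878 over all 8 libraries and 4.74e-09 without library 2 of wild-type BCSP). Runx3, which acts with Runx2 in the maturation of chondrocytes, stood at 66.8 and 66.5 CPM in SSC of wild type, 80.0 and 43.8 in SSC of KO, 39.4 and 34.6 in wild-type BCSP and 28.2 and 27.3 in KO BCSP. All SSC libraries were above all BCSP libraries, as held for 328 of all tested genes with SSC higher (1.48%). The difference was 0.99 ± 0.16 (edgeR adjusted p = 0.0878 over all 8 libraries and 3.22e-05 without library 2 of wild-type BCSP). Over the 24 alternative settings the adjusted p of Cxcl12, Wif1, Cytl1, Arsi and Runx3 each reached up to 1, while their log2 differences ranged from -1.18 to -0.95, -1.30 to -0.66, -1.45 to -0.82, 0.71 to 1.31 and 0.80 to 1.16 in that order.

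Nos1, the neuronal nitric oxide synthase, stood between 5.48 and 15.4 CPM in SSC and between 3.57 and 6.31 in BCSP (1.04 ± 0.17, edgeR adjusted p = 0.0959). Il6, the inflammatory cytokine interleukin 6, stood between 7.5 and 12.3 CPM in SSC and between 2.0 and 6.37 in BCSP, with no overlap (1.14 ± 0.21, edgeR adjusted p = 0.168). Bmp7, a bone morphogenetic protein, stood between 37.1 and 60.4 CPM in SSC and between 21.7 and 34.4 in BCSP (0.78 ± 0.17). Pdgfa (0.68), a platelet-derived growth factor chain, and Cnr1 (1.39), the cannabinoid receptor CB1, were the other signalling genes. P4ha3 (0.69), a collagen prolyl hydroxylase subunit, Col26a1 (1.04), a collagen, and Slc35d1 (0.63), which carries the nucleotide sugars for chondroitin sulfate into the endoplasmic reticulum, act in the making of matrix. Chd7 (0.88) is a chromatin remodeller, Magel2 (0.77) an imprinted ubiquitin ligase regulator, Ppif (0.80) the mitochondrial cyclophilin, Lcp1 (0.75) an actin-bundling protein of blood cells and H3c4 (1.11) a histone gene. None of these 15 genes passed in edgeR over all 8 libraries, where their adjusted p ranged from 0.0878 to 0.277.

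The population difference was tested for a dependence on genotype, and 2 genes passed (0.00903%), Igkc and Stfa2, both genes of blood cells that were read mainly in some round 1 libraries. Eng passed within wild type, where 3 genes did (0.0135%), and within KO, where 2 did (0.00903%). The differences in the 2 genotypes had a Pearson correlation of 0.240 and a Spearman correlation of 0.201 across 12639 genes, which are not independent replicates and share the library layout. Of the 784 genes with an unadjusted p under 0.05 in wild type, 555 (70.8%) pointed the same way in KO, against 52.7% of all tested genes. Of the 553 such genes in KO, 433 (78.3%) pointed the same way in wild type. Among single pairs the wild-type round 2 pair had Pearson correlations across genes of -0.127 with wild-type round 1 and -0.125 with KO round 2, and the other combinations of pairs correlated at 0.193 to 0.262. No gene passed the test of a dependence on round in edgeR (0%), where 440 genes had an unadjusted p under 0.05 and DESeq2 called 1.

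**Figure D3:**
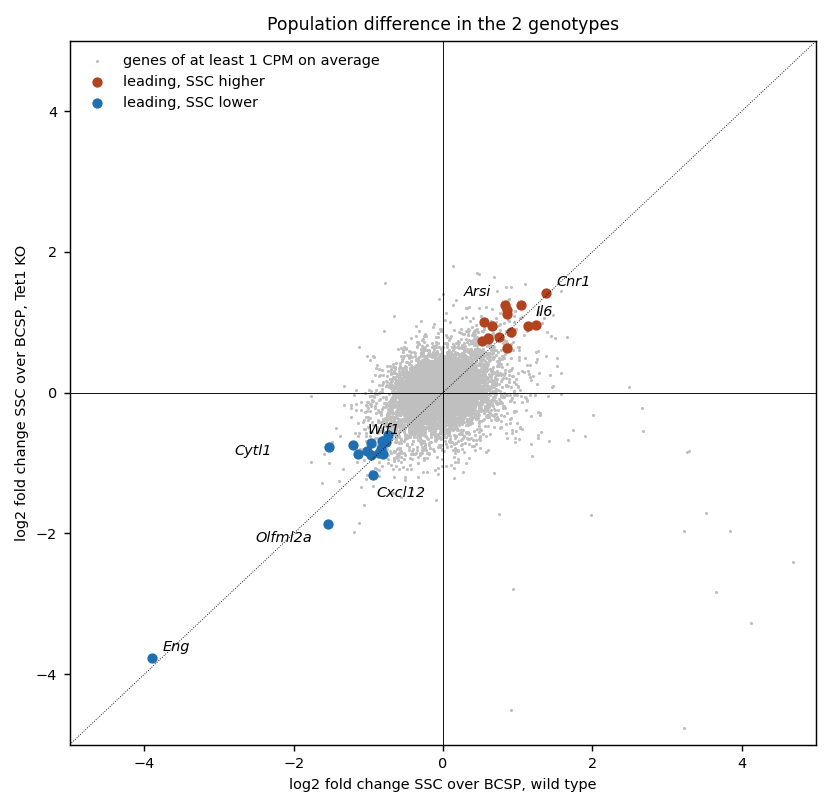
Log2 fold change of SSC over BCSP in wild type (x axis) against that in Tet1 KO (y axis), one point per gene of at least 1 CPM on average, with 5 genes beyond the axes left out and the dotted line marking equal values. The leading genes were chosen to point the same way in every pair, and Eng lies at -3.90 and -3.77.

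Most genes of the chondrocyte hypertrophy list had higher fitted levels in SSC. Hypertrophic chondrocytes are the enlarged, mineralizing cells at the end of the growth plate, and of 18 tested genes of that list 14 had a log2 difference above 0, with a median of 0.27, where 11424 of all 22153 tested genes were above 0 with a median of 0.01. None of the 18 passed in edgeR over all 8 libraries, 9 had an unadjusted p under 0.05 with SSC higher (2.46% of all tested genes) and none with SSC lower, and 3 passed higher in DESeq2 (0.221%). Without library 2 of wild-type BCSP 5 passed in edgeR, namely Alpl, Spp1, Runx2, Mmp13 and C1qtnf3, all higher (1.11%). With no filter 6 passed higher (0.16%), Col10a1, Ihh and Panx3 among them. Runx2, the master factor of osteoblasts and hypertrophy, stood between 63.6 and 101 CPM in SSC and between 37.9 and 83.5 in BCSP (0.65 ± 0.16). Spp1, which encodes the mineral-binding protein osteopontin, was at 145 and 88.1 CPM in SSC of wild type, 171 and 82.8 in SSC of KO, 118 and 53.1 in wild-type BCSP and 87.0 and 59.9 in KO BCSP (0.61 ± 0.14). Round 1 libraries were the higher ones in each group, so the populations overlapped while every pair had SSC above BCSP.

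Col10a1, the collagen that defines hypertrophic cartilage, stood at 754 and 370 CPM in SSC of wild type, 879 and 185 in SSC of KO, 384 and 214 in wild-type BCSP and 194 and 213 in KO BCSP. Its log2 difference was 0.94 ± 0.27 over both rounds, 1.59 in round 1 and 0.30 in round 2, and the KO round 2 pair had SSC below BCSP. Ihh (0.71), the hedgehog ligand made by prehypertrophic cells, Panx3 (0.65), a channel of these cells, and Mmp13 (0.67), their collagenase, also had means above 0. The osteoblast factor Sp7 was at 0.48 ± 0.15. In its osteoblast and mineral list 10 of 19 tested genes were above 0, with a median of 0.04. An unadjusted p under 0.05 was reached by 5 genes with SSC higher (2.46% of all tested genes) and 3 with SSC lower (2.57%). Those lower were Col1a1 (-0.47), Col1a2 (-0.54) and Sparc (-0.38). Without library 2 of wild-type BCSP 4 passed higher in edgeR (1.11%), Sp7 among them, and Col1a1 and Col1a2 passed lower (1.28%). The summed CPM of the hypertrophy list was 1887 to 3772 in SSC and 1817 to 2817 in BCSP, which overlapped, and was higher in SSC in 4 of 4 pairs. In bulk libraries, more cells of a type and more RNA of its genes per cell cannot be told apart. Of the general cartilage matrix genes, 12 of 26 were above 0, with a median of -0.06. An unadjusted p under 0.05 was reached by 4 with SSC higher (2.46% of all tested genes) and 4 with SSC lower (2.57%). Of the first, Acan, the main proteoglycan of cartilage, was at 0.33 ± 0.15 and Prelp, a leucine-rich repeat proteoglycan, at 0.46 ± 0.14. Those with SSC lower were Cilp (-0.77), Vit (-0.75), Cilp2 (-0.44) and Chad (-0.39). Of these Cilp and Vit passed in DESeq2 (0.411% of all tested genes), as did Prelp among those higher (0.221%). Without library 2 of wild-type BCSP 3 cartilage matrix genes passed higher in edgeR (1.11% of all tested genes), Prelp among them, and Cilp alone passed lower (1.28%).

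The RUNX family held both signs. Runx3 and Runx2 stood at 0.99 and 0.65, while Runx1 (-0.16 ± 0.16) and the shared partner Cbfb (-0.16 ± 0.13) had small differences of the other sign, and whether the paralogues differ from each other was not tested. Without library 2 of wild-type BCSP, Runx3 and Runx2 passed higher in edgeR (1.11% of all tested genes) and the other 2 did not.

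Most genes of the joint surface list had lower fitted levels in SSC. The superficial zone of articular cartilage makes lubricant and lies apart from the growth plate, and 11 of its 12 listed genes were below 0, with a median of -0.48. None passed in edgeR over all 8 libraries, 7 had an unadjusted p under 0.05 with SSC lower (2.57% of all tested genes), 5 passed lower in DESeq2 (0.411%) and 7 in edgeR without library 2 of wild-type BCSP (1.28%). Prg4, which encodes the lubricant lubricin, stood at 245 and 482 CPM in SSC of wild type, 304 and 770 in SSC of KO, 531 and 534 in wild-type BCSP and 891 and 988 in KO BCSP. Every pair had SSC below BCSP, and the difference was -1.32 in round 1 and -0.26 in round 2. Creb5, a factor that drives Prg4, was at -0.93 ± 0.22 with 1 of 4 pairs in the other direction, that of wild-type round 2. Cilp (-0.77), Thbs4 (-0.54), Vit (-0.75) and the factor Erg (-0.47) had SSC below BCSP in all 4 pairs. The summed CPM of the list was 507 to 1195 in SSC and 883 to 1494 in BCSP, and lower in SSC in 4 of 4 pairs.

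Most fibrous and tendon matrix genes also had lower fitted levels in SSC. Of 22 tested, 19 were below 0 with a median of -0.28, none passed in edgeR over all 8 libraries, 5 passed lower and 1 higher in DESeq2 (0.411% and 0.221% of all tested genes), and 8 passed lower and 1 higher in edgeR without library 2 of wild-type BCSP (1.28% and 1.11%). Dcn, the small proteoglycan decorin, stood between 506 and 580 CPM in SSC and between 686 and 898 in BCSP, with no overlap (-0.57 ± 0.14). The bone and skin collagen genes Col1a1 (-0.47) and Col1a2 (-0.54) did not overlap between the populations, while Col3a1 (-0.55) and the tendon gene Tnmd (-0.70) did. The 3 members above 0 were Kera, Col6a3 (0.16) and Fn1 (0.08, and -0.0212 without library 2 of wild-type BCSP). Kera, the proteoglycan keratocan, was at 1.61 ± 0.44, with levels between 0.376 and 2.83 CPM in SSC and between 0.0328 and 1.06 in BCSP.

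**Figure D4:**
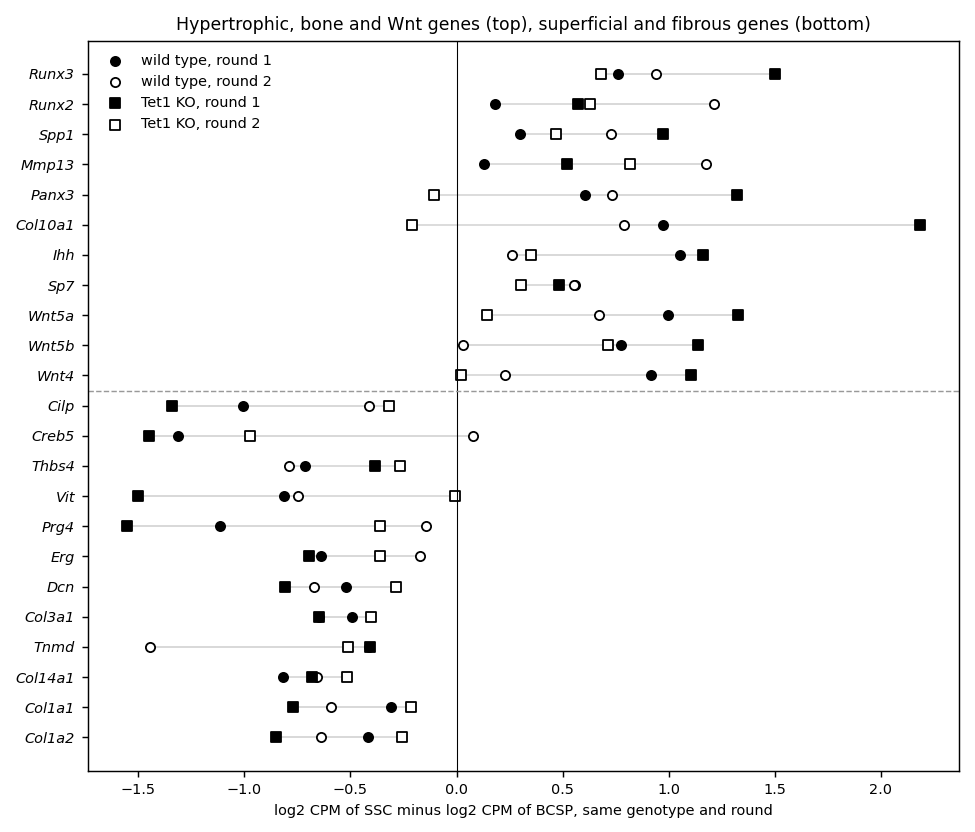
Difference in log2 CPM between the SSC and BCSP libraries of 1 genotype and round, 4 points per gene joined by a grey line. Runx3, Runx2 and Spp1 lie above 0 in all 4 pairs, Col10a1 and Panx3 fall below 0 in KO round 2, and Prg4, Cilp and Dcn lie below 0 in all 4.

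Of 14 tested Wnt ligands, 10 were above 0 with a median of 0.36, which fell to 0.04 without library 2 of wild-type BCSP. None passed in edgeR over all 8 libraries, 2 passed higher in DESeq2 (0.221% of all tested genes), and 5 passed higher in edgeR without library 2 of wild-type BCSP (1.11%). Wnt5a, a noncanonical ligand of the growth plate, stood between 5.28 and 10.3 CPM in SSC and between 3.22 and 5.80 in BCSP (0.79 ± 0.20). Wnt5b (0.66), Wnt10b (1.12) and Wnt4 (0.58) had SSC above BCSP in all 4 pairs, and Wnt9a was at -0.51 ± 0.20. In the list of Wnt inhibitors and targets, 13 of 20 genes were above 0 with a median of 0.17. Of the secreted inhibitors, Wif1, Sfrp2 (-0.69 ± 0.16), Frzb (-0.30 ± 0.13), Dkk3 (-0.26 ± 0.15) and Sfrp1 (-0.23 ± 0.12) were below 0. Above 0 were Sfrp5 (0.34 ± 0.15), Dkk2 (0.84 ± 0.55, and -0.15 within round 1), Notum (0.29 ± 0.15), Dkk1 (0.26 ± 0.56) and Sfrp4 (0.12 ± 0.37). Sfrp2 passed lower (1.28% of all tested genes) and Sfrp5 higher (1.11%) in edgeR without library 2 of wild-type BCSP. The Wnt effectors Lef1 (0.34) and Tcf7 (0.44) did not overlap between the populations and did not pass in edgeR over all 8 libraries or without library 2 of wild-type BCSP.

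In the TGF-beta and activin list, Eng passed in edgeR and the other 27 tested members did not, and 18 of 28 were below 0 with a median of -0.03. Acvrl1, the type 1 receptor that pairs with endoglin, stood between 3.39 and 6.50 CPM in SSC and between 5.69 and 10.2 in BCSP (-0.62 ± 0.16). Ltbp2 (-0.74), of the same family as Ltbp1, was below 0 in all 4 pairs, and Tgfbi (0.62), a secreted protein induced by TGF-beta, was above 0 in all 4. Without library 2 of wild-type BCSP, Tgfbi alone of this list passed higher in edgeR (1.11% of all tested genes). Passing lower (1.28%) were 6 members, Eng, Ltbp1, Ltbp2 and Acvrl1 among them. In the BMP list, with 16 of 34 above 0 and a median of -0.06, the antagonists divided, with Nog (0.47) and Chrdl1 (0.66) above 0 and Chrdl2 (-0.80) below. Chrd (-0.34) and Nbl1 (-0.37) of the same list were below 0 as well. None of the BMP list passed in edgeR over all 8 libraries. Without library 2 of wild-type BCSP 3 passed higher (1.11% of all tested genes), Nog and Chrdl1 among them, and Chrdl2 passed lower (1.28%).

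In the hedgehog and PTHrP list, 10 of 16 genes were above 0 with a median of 0.09. Gli1 (0.43) and Ptch1 (0.43), both induced by hedgehog signalling, and Kif7 (0.53), a kinesin of the same pathway, had SSC above BCSP in all 4 pairs, and Gas1 (-0.45), a co-receptor, had SSC below. Hhip, of the same list, was also below 0 (-0.37 ± 0.18), so members of the pathway pointed both ways. In the FGF list, 4 of 21 genes were above 0 with a median of -0.18. Fgfr3, the receptor that restrains chondrocyte growth, stood between 405 and 594 CPM in SSC and between 314 and 408 in BCSP (0.48 ± 0.14), while the FGF-induced genes Etv4 (-0.88), Etv5 (-0.29) and Dusp6 (-0.48) had SSC below BCSP in all 4 pairs. In the IGF list, 8 of 16 were above 0 with a median of -0.05. Igf1 (-0.72) and the binding proteins Igfbp3 and Igfbp5 (-0.85) were below 0, and Pappa2 (0.57), a protease that cleaves such binding proteins, was above 0 and did not overlap between the populations. None of the genes in these 3 lists passed in edgeR over all 8 libraries. Without library 2 of wild-type BCSP, 2 hedgehog genes (Gli1, Kif7), 1 FGF gene (Fgfr3) and 1 IGF gene (Pappa2) passed higher (1.11% of all tested genes). Passing lower (1.28%) were 2 hedgehog, 2 FGF and 4 IGF genes, among them Gas1, Hhip, Etv4, Dusp6, Igf1, Igfbp3 and Igfbp5. Ptch1 and Etv5 did not pass there.

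Enzymes of glycosaminoglycan metabolism pointed both ways, with 17 of 32 synthesis genes above 0 and a median of 0.06. Chst15 (0.62) and Csgalnact1 (0.48), which sulfate and start chondroitin chains, had SSC above BCSP in all 4 pairs, as did the sulfate transporter Slc26a2 (0.43), while the heparan sulfotransferase Hs6st2 (-0.73) had SSC below. Of 14 sulfatases, Arsi was the one that passed higher in DESeq2 (0.221% of all tested genes). Sulf2, an extracellular heparan endosulfatase, passed lower there (0.411%) at -0.62 ± 0.13. Sulf2 stood between 92.2 and 121 CPM in SSC and between 139 and 190 in BCSP, with no overlap. None of either list passed in edgeR over all 8 libraries. Without library 2 of wild-type BCSP, 3 synthesis genes passed higher (1.11% of all tested genes), Chst15 and Csgalnact1 among them. Passing lower (1.28%) were 2, Hs6st2 and Chst3 (-0.39 ± 0.17). Slc26a2 did not pass in that fit. Of the sulfatases, Arsi passed higher without library 2 of wild-type BCSP and 2 passed lower, Sulf2 among them.

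**Figure D5:**
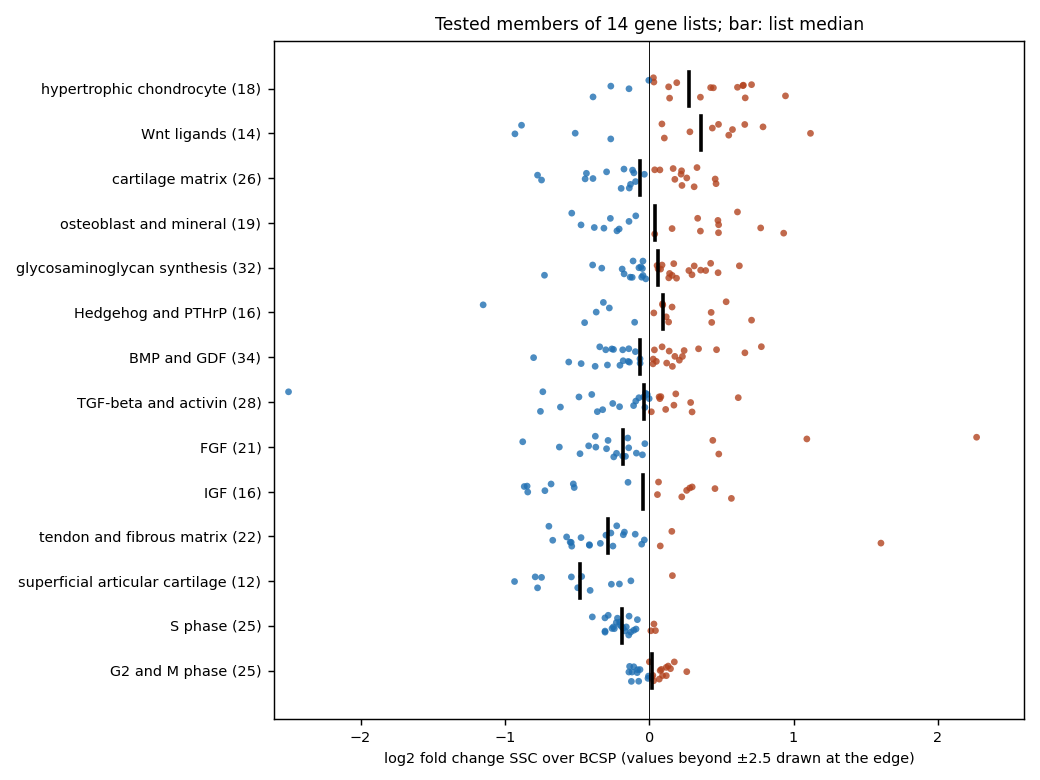
Log2 fold change of SSC over BCSP for every tested member of 14 gene lists, one point per gene (scattered vertically for legibility), with the number tested in brackets and a black bar at the median. The superficial articular cartilage list has a median of -0.48 and the Wnt ligands one of 0.36 (0.04 without library 2 of wild-type BCSP), and the point at the left edge of the TGF-beta list is Eng.

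Proliferation genes gave no call in edgeR over all 8 libraries or in DESeq2. Without both round 2 BCSP libraries, the difference came from round 1. There Cdc20 and Aurka of the G2 and M phase list passed higher in edgeR, as did 0.903% of all tested genes. Over all 8 libraries Cdc20 was at 0.03 ± 0.24 and Aurka at 0.13 ± 0.26. Of 25 S phase genes 3 were above 0 with a median of -0.19, of 25 G2 and M phase genes 14 were above 0 with a median of 0.02, and none in either list had an unadjusted p under 0.05. The median of the G2 and M phase list turned with round, from 0.32 in round 1 to -0.37 in round 2. Histone genes, a group added after H3c4 appeared among the leading genes, had 44 of 51 tested members above 0 and a median of 0.59. They were taken by symbol, so the 51 include H1f0, H1f10 and the oocyte gene H1f8, linker histones whose expression does not depend on replication, and the pseudogene H2ac5-ps. None passed in edgeR over all 8 libraries, 15 had an unadjusted p under 0.05, all with SSC higher (2.46% of all tested genes), 5 passed higher in DESeq2 (0.221%) and 9 in edgeR without library 2 of wild-type BCSP (1.11%). H2bc6 stood between 15 and 23.2 CPM in SSC and between 8.48 and 13.8 in BCSP (0.70 ± 0.15). H2ac6 (0.69), H2bc11 (1.16) and H1f1 (1.08) had SSC above BCSP in all 4 pairs. Near-identical histone copies share reads, so the split among members is uncertain. Replication-dependent histone transcripts mostly lack poly(A) tails, and the labels do not say how the libraries selected RNA.

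Beside Eng, the sort genes Enpep, Cd200, Itgav, Thy1, Ptprc and Tek did not pass in edgeR over all 8 libraries. Enpep and Itgav passed lower without library 2 of wild-type BCSP (1.28% of all tested genes). Enpep stood between 1.13 and 1.23 CPM in SSC and between 1.11 and 3.55 in BCSP (-0.90 ± 0.30, edgeR adjusted p = 0.677). Cd200, which SSC are sorted to display, stood between 24.2 and 49.7 CPM in SSC and between 28.6 and 67.2 in BCSP (-0.39 ± 0.14, edgeR adjusted p = 0.753). Itgav stood between 42.2 and 58.4 CPM in SSC and between 34 and 69.5 in BCSP, which overlapped. Thy1 was at no more than 1.14 CPM, Ptprc at no more than 1.08 and Tek at no more than 0.391 in every library. The summed CPM of 14 endothelial genes, a cell type that displays endoglin, was 6.24 to 7.77 in SSC and 5.50 to 9.09 in BCSP, ranges that overlapped. Blood genes varied between libraries within each population. The 12 neutrophil genes summed to between 1.72 and 200 CPM in SSC and between 5.78 and 62.4 in BCSP, with the highest value in library 1 of wild-type SSC. The pericyte and smooth muscle list summed to 1111 to 1239 CPM in SSC and 838 to 1020 in BCSP, without overlap, and most of that sum was Cspg4, which chondrocytes also express and which stood between 1043 and 1187 CPM in SSC and between 791 and 947 in BCSP.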

How the data were processed

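The deposited table holds whole-number counts of reads per gene for 8 libraries, which the authors did not normalize, judging from the values. STAR, featureCounts, DESeq2 and mm10 are named in the submitters' processing notes, with no role or version, and the table's own name points to another counter. No source used here states how strand was handled, so overlapping genes cannot be separated. Positions come from GENCODE M21 (55230 of 55471 entries matched).

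Genes were kept with edgeR's filter (minimum count 10, minimum total 15), scaled by TMM and tested in edgeR 4.0.16 (quasi-likelihood, robust, Benjamini-Hochberg over all 22153 genes, threshold 0.05, R 4.3.3) with genotype, round and population as terms, leaving 4 residual degrees of freedom. The fits of wild type, KO and their difference used 1 mean per group plus round. CPM are TMM-scaled. ± is the SD for levels and the SE for log2 fold changes, which are SSC minus BCSP. Fold changes of genes without ± come from the same fit. DESeq2 1.42.0 and limma-voom (limma 3.58.1) were alternatives, as were other scalings, filters and covariates, removing an exon length trend, and leaving out each library. The tests were checked on simulated data, where DESeq2 made more false calls than edgeR. Those data held no outlying library, exon length trend, genotype effect or round effect, so the check does not cover these features of the libraries.

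Named genes were the 15 of smallest p in each direction (mean of at least 1 CPM, same sign in 4 of 4 pairs, filled up with genes that did not pass), the 5 markers Eng, Cytl1, Wif1, Arsi and Runx3, the sort genes (1 of them is not reported here), Tet1, and up to 4 members of smallest p per list. Ighg2c, Prg4, Col10a1, Kera, Tgfbi, Ptch1, Acan, Sfrp5, Dkk2, Notum, Wnt9a, Cilp2, Chad, Col6a3, Fn1, Cdc20, Aurka and the histone genes were added after their values were seen. So were Sparc, Frzb, Dkk3, Sfrp1, Dkk1, Sfrp4, Hhip, Hey1, Chst3, Chrd and Nbl1. The members and the 40 gene lists were chosen with earlier results of these data known. Fits that leave out a library first recomputed the gene filter. After their counts were seen, they were changed to keep the genes of the 8-library fit, and both versions of the fit without library 2 of wild-type BCSP are reported.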

Additional observations from a re-analysis of the deposited data

Results flagged for a closer look

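In 11 of 206 sets of 4 libraries checked (103 genes in 2 populations), 1 library lay far from the other 3 by Dixon's test, where chance gives about 10.3. In SSC these were Col26a1 at 13.7 CPM and Ighg2c at 0.153 CPM in library 1 of wild type, and Eng at 3.89, Tgfbi at 866 and Chrdl2 at 2.87 CPM in library 2 of wild type. In BCSP they were Tcea3 at 16.9, Ighg2c at 39.1 and Col10a1 at 384 CPM in library 1 of wild type, Egln3, a hypoxia-induced hydroxylase, at 17.2 CPM and Fn1, the matrix protein fibronectin, at 3759 CPM in library 2 of wild type, and Olfml2b at 84.9 CPM in library 1 of KO.

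The population difference differed between the genotypes for 2 genes (edgeR test of the difference). Igkc, an immunoglobulin light chain gene, had a KO minus wild-type difference of -12.50 (adjusted p = 0.000433). It stood at 42.8 CPM in library 1 of wild-type SSC, 35.2 in library 1 of wild-type BCSP and 9.51 in library 1 of KO BCSP, and at no more than 0.0154 CPM in the other 5 libraries. Stfa2, a stefin gene of neutrophils, had a difference of -7.09 (adjusted p = 0.0304), with 19.2 CPM in library 1 of wild-type SSC, 3.08 in library 1 of KO BCSP and no more than 0.632 in the others. Without library 1 of wild-type SSC, or without library 1 of KO SSC, the test of the difference called no gene, at an unadjusted p under 0.05 for 118 and 130 genes.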

How the results depend on the processing

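Eng passed under all 24 alternatives. Of 103 named genes followed through these alternatives, 100 kept their direction in every one. Ighg2c turned to 0.13 within round 2, and Dkk2 to -0.15 within round 1 and -0.16 without both round 2 BCSP libraries. Fn1 turned to -0.10 within round 1, -0.11 without both round 2 BCSP libraries and, without library 2 of wild-type BCSP, -0.0206 in limma-voom, -0.0295 in DESeq2 and -0.0189 with the filter recomputed, and ranged from -0.0212 to 0.15 when 1 library was left out. Replicate block: with the 4 genotype and round pairs as a block 2 genes passed, and with no replicate block 1 did, against 1 in wild type, 1 in KO and 0 for the genotype difference. Same-numbered libraries of 2 groups deviated together with correlations of 0.559 to 0.645 among wild-type SSC, KO SSC and KO BCSP. Between wild-type BCSP, which holds the library that stood apart, and each of these groups they were 0.0590 to 0.273. The numbers are thus not shown to pair wild-type BCSP with the rest. The main count of 2 became 140 in DESeq2, 1 in limma-voom, 135 with no filter, 1 with at least 1 CPM in 4 libraries, 12 with the exon length trend removed, 443 without both round 2 BCSP libraries, 4 within round 1 and 1 within round 2. Without library 2 of wild-type BCSP it was 528, or 712 with the filter recomputed, 653 in limma-voom and 696 in DESeq2, the last 3 and the fit without robust estimation (2) added after seeing the data. The cause was not tested. Leaving out 1 library gave 1 to 528 calls for both genotypes, 1 to 3781 in wild type (3781 without wild-type BCSP library 1), 1 to 222 in KO (222 without wild-type BCSP library 1), 0 to 2557 for the genotype difference (2557 without wild-type BCSP library 1) and 0 to 2723 for the round difference (2723 without KO BCSP library 2). Where a group is left with 1 library, that library is assumed to vary like the other groups. In DESeq2 wild type had 6 calls, the genotype difference 1 and the round difference 1. With no filter the counts were 34 in wild type, 22 in KO, 17 for the genotype difference and 10 for the round difference. Of the list medians under alternatives, 53 moved by more than the spread between pairs. Every library holds at least 104782544 counts, so counting error is small for genes of 1 CPM or more, while the biological coefficient of variation between libraries was 0.467 in common over all tested genes, with a median trended value of 0.184 for genes of at least 1 CPM.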

Other observations

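In the inflammatory list, 15 of 25 genes were above 0 with a median of 0.03. An unadjusted p under 0.05 was reached by 1 with SSC higher (2.46% of all tested genes) and 3 with SSC lower (2.57%). None passed in edgeR over all 8 libraries. The cytokine gene Lif (-0.50 ± 0.16) and the adhesion gene Icam1 (-0.40 ± 0.13) had SSC below BCSP in all 4 pairs, the opposite side to Il6, and both passed in edgeR without library 2 of wild-type BCSP. Hes1, a Notch target, stood between 72.7 and 92.9 CPM in SSC and between 101 and 127 in BCSP, with no overlap (-0.49 ± 0.14). The Notch list as a whole did not share this direction. In it 11 of 20 tested genes were above 0 with a median of 0.10, Hey1 (0.47 ± 0.20) among them. Among chondrocyte factors, Nkx3-2 (0.57) and Shox2 (0.35) had SSC above BCSP in all 4 pairs and Barx1 (-0.77) had SSC below. Rgs5, a pericyte gene, was at -1.33 ± 0.30 with no more than 3.74 CPM in any library, while the summed pericyte and smooth muscle list had the other direction. Hes1, Nkx3-2, Shox2, Barx1 and Rgs5 did not pass in edgeR over all 8 libraries. They passed in the same directions without library 2 of wild-type BCSP, where 1.11% of all tested genes passed higher and 1.28% lower.

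Xist, expressed from the inactive X chromosome of females, stood between 75.0 and 621 CPM, and the Y-linked gene Ddx3y between 23.2 and 92.2 CPM, so both were read in all 8 libraries. The labels do not give the sex of the pups.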
